A study of Homo sapiens with 16 samples.

Results

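Immunoprecipitation (IP) with a nonspecific IgG antibody was compared between cells in which the long noncoding RNA MIR100HG was targeted by siRNA and cells given a control siRNA. The comparison used 8 of the 16 Illumina bead arrays of the study, 4 per siRNA, chosen by the antibody and siRNA in their labels and by no measured value. The cells were U2OS, a human osteosarcoma line, synchronized in the cell cycle; the phase of each sample is not stated in the labels. All 8 samples shared the IgG antibody, protein A-Sepharose beads, harvest 48 h after transfection and amplification of the recovered RNA from an oligo-dT primer. The other 8 arrays held IPs of HuR, an RNA-binding protein (gene ELAVL1), from cells given the same siRNAs. The 4 samples of a group are biological replicates per the design text. A protocol in the labels spells the siRNA target differently from the sample titles, which were followed here.

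An IgG IP carries RNA that sticks to the antibody, the beads or the tube without a specific binding protein, and it serves as the background against which a specific IP is read. The RNA in it usually comes from the transcripts that are most abundant in the cell, such as those for ribosomal proteins, elongation factors, actin and thymosins. MIR100HG is the host transcript of a microRNA cluster. HuR binds U-rich elements of many mRNAs.

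Of 47231 probes, 519 (1.10%) had a detection p-value under 0.01, which sets a probe against the negative controls of its array, on at least 3 arrays of either group. They gave 510 features, 255 of them named genes and 255 probes without a gene name here. In the MIR100HG siRNA group 69 features were lower and 12 higher at an adjusted p under 0.05 (limma, Benjamini-Hochberg), or 13.5% and 2.35% of those tested. The named ones were 30 lower and 4 higher genes. Those lower included 13 ribosomal protein genes, the thymosins TMSB4X and TMSB10, the elongation factor EEF1A1, the histone variant H2AZ1 and the noncoding RNA SNHG3.

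The filter bears on how these counts are read. Of the 69 lower features, 66 passed it only through the control group. That favours a lower value with MIR100HG siRNA without fixing it, and the number of these features supports nothing by itself. Of the 12 higher features, 3 passed it only through the MIR100HG siRNA group, which favours the opposite direction. Among 157 features detected on at least 3 arrays of both groups, limma called 0 (35 at an unadjusted p under 0.05). With no detection filter, 9 of 37164 features were lower and 0 higher (2020 at an unadjusted p under 0.05), and all 9 were among the 69. The named genes of these 9 were TMSB4X, H2AZ1 and RPS10. Leaving out 1 array changed the count of 81 calls to 33, 39 and 44 without control replicates 1, 2 and 4. The count was 137, 35, 35 and 46 without MIR100HG siRNA replicates 1, 2, 3 and 4. In all 8 such fits 26 of the 69 lower features and 1 of the 12 higher ones passed.

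The signal of the arrays was compared by 3 measures. The background-corrected signal summed over the 510 tested features was 8515 ± 1931 intensity units (SD, n = 4) with control siRNA. With MIR100HG siRNA it was 5157 ± 759 (two-sided exact permutation p = 0.0286, the smallest that 4 against 4 arrays allow, and 0.0857 adjusted over 3 array measures). Of these features, 259 passed the filter only through the control group and 95 only through the MIR100HG siRNA group. The filter thus favours a higher sum with control siRNA, and this p supports nothing by itself. The control arrays read 11398, 7760, 7325 and 7576, and the MIR100HG siRNA arrays 6097, 4289, 4913 and 5328, so the groups did not overlap. Control replicate 1 stood above the others, and without it the difference fell from -3358 to -2397 units. Median intensity over all probes, which the filter did not choose, was 46.25 ± 0.957 against 43.75 ± 1.26 (exact permutation p = 0.0571, adjusted 0.0857). The number of probes detected at p under 0.01 was 1094, 829, 850 and 889 against 689, 553, 692 and 1015, with MIR100HG siRNA replicate 4 inside the control range (exact permutation p = 0.171, also 0.171 adjusted).

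Since the normalization gives every array the same distribution, a difference in the level of whole arrays was removed before the test. Without scaling between arrays the median of all features was -0.14 on the log2 scale instead of -0.04, and limma called 114 features lower and 0 higher. Of 510 features, 479 had a lower mean intensity before normalization with MIR100HG siRNA. They were all 259 that passed the filter only through the control group, where it favours this direction, and 66 of 95 that passed only through the other. Of those that passed through both groups they were 154 of 156, as the probe per gene was chosen before this split. After normalization, all 4 MIR100HG siRNA arrays lay below all 4 control arrays for 59 of the 69 lower features and for 72 of all 510 (14.1%). Less RNA recovered overall and less of particular RNAs cannot be told apart on these arrays, nor can fewer cells and less RNA per cell. The IP numbers of each group run consecutively, and the labels do not say what they count. If they follow an order of handling, that order cannot be told apart from the siRNA.

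**Figure D1:**
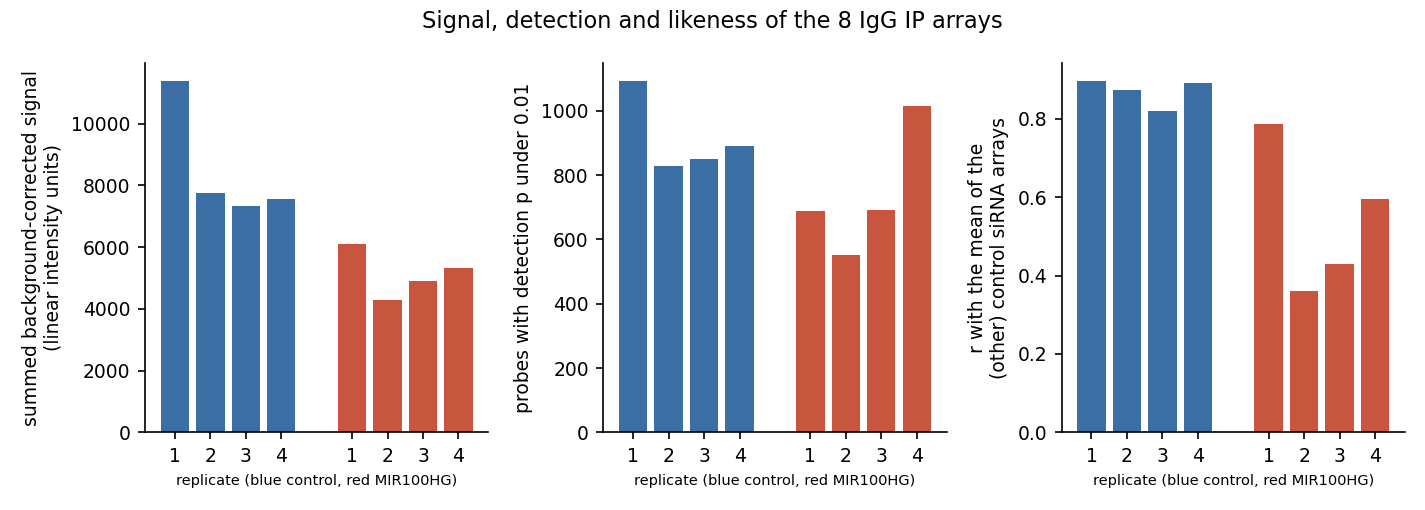
For each of the 8 IgG IP arrays, bars show the background-corrected signal summed over the tested features, in linear intensity units. Further bars show the number of probes with a detection p under 0.01. The last bars show the correlation across the tested features of an array's normalised log2 values with the mean of the other control siRNA arrays. Control siRNA arrays are blue and MIR100HG siRNA arrays red, and 1 bar is 1 array. Control replicate 1 has the highest signal at 11398 units, and MIR100HG siRNA replicate 1 is the array of its group most like the controls.

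The correlation across features with the mean of the other control arrays ran from 0.82 to 0.90 among control arrays, and was 0.79, 0.36, 0.43 and 0.60 for MIR100HG siRNA replicates 1 to 4. It is a description, since the features share the normalization and passed one filter. Without MIR100HG siRNA replicate 1, the array most like the controls, limma called 110 features lower and 27 higher.

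Neither the siRNA target nor HuR could be checked on these arrays. The MIR100HG probe read 45, 49, 45 and 47 intensity units with control siRNA and 43, 41, 45 and 45 with MIR100HG siRNA, and its lowest detection p on the 8 arrays was 0.296. That of ELAVL1 was 0.117, at 43.25 ± 3.20 units against 42.5 ± 2.38 (SD, n = 4). The markers of bone and mesenchymal cells were near background too. Of 16 such markers with a probe, each read by its brightest one, 15 were detected at p under 0.01 on 0 of 8 arrays, RUNX2, COL1A1 and VIM among them, and LGALS1 on 2. Their summed intensity ran from 763 to 803 with control and from 681 to 738 with MIR100HG siRNA. Of the markers of other cell types, 12 of 12 epithelial, 11 of 11 neuronal and 15 of 16 haematopoietic ones were detected on 0 of 8 arrays, PTPRC, CD3E and HBB among the last. The summed intensity ran from 533 to 568 against 501 to 542 for the epithelial list, from 512 to 535 against 463 to 505 for the neuronal list, and from 844 to 941 against 725 to 802 for the haematopoietic list. LAIR1, an inhibitory receptor of leukocytes, was the exception. It read 203, 122, 135 and 136 units with control and 114, 60, 74 and 69 with MIR100HG siRNA. Its normalised groups overlapped, and its log2 difference of -0.42 did not pass (limma adjusted p = 0.136). The summed levels with MIR100HG siRNA lay below the control range for each list but the epithelial one, whose ranges overlapped, and the part of this in the results was not tested.

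TMSB4X, which encodes the actin-monomer binding peptide thymosin beta, had the smallest p of all features tested. It read 108, 97, 84 and 94 intensity units on the control arrays and 48, 48, 48 and 50 with MIR100HG siRNA. The groups were far apart, and with MIR100HG siRNA the probe was not above background on any array at a detection p of 0.05. Its normalised log2 level was lower by at least 2.03-fold, taken against the lowest detected signal of each array (fitted difference -1.27 ± 0.10 SE, limma adjusted p = 1.2e-04, n = 4 per group). Leaving out 1 array at a time, the highest adjusted p was 0.00105, and with no filter it was 7.1e-04. TMSB10, the related thymosin, fell too, from 74.5 ± 9.33 to 52.75 ± 5.32 units (log2 difference -0.57 ± 0.14 SE, limma adjusted p = 0.0265). MYL12B, a regulatory light chain of myosin, fell by 0.40 (limma adjusted p = 0.0359). Both lost the call in several fits without 1 array, with adjusted p up to 0.0777 for TMSB10 (without control replicate 1, 2 or 4 or MIR100HG siRNA replicate 2 or 3) and up to 0.107 for MYL12B (in every fit but those without MIR100HG siRNA replicate 1 or 3).

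In the actin cytoskeleton list, 6 of 45 genes with a probe were tested, and 3 of the 6 were lower and 0 higher, against 13.5% and 2.35% of all features. Their median log2 difference was -0.39, against -0.04 over all tested features. Only 2 of the 6 were detected on at least 3 MIR100HG siRNA arrays, and 5 on at least 3 control arrays. The filter thus kept most of them through the control group, and the share over all features is a low base for this list. ACTB, cytoplasmic beta actin, read 87, 66, 56 and 71 units against 53, 52, 54 and 54. Its control arrays were all higher before normalization, but its normalised groups overlapped, and it differed by -0.38 ± 0.13 SE on the log2 scale (limma, adjusted p = 0.0681). The 2 tubulin genes tested, TUBA1A and TUBA1B, had log2 differences of -0.44 and -0.46 and did not pass (limma adjusted p = 0.181 and 0.217).

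**Figure D2:**
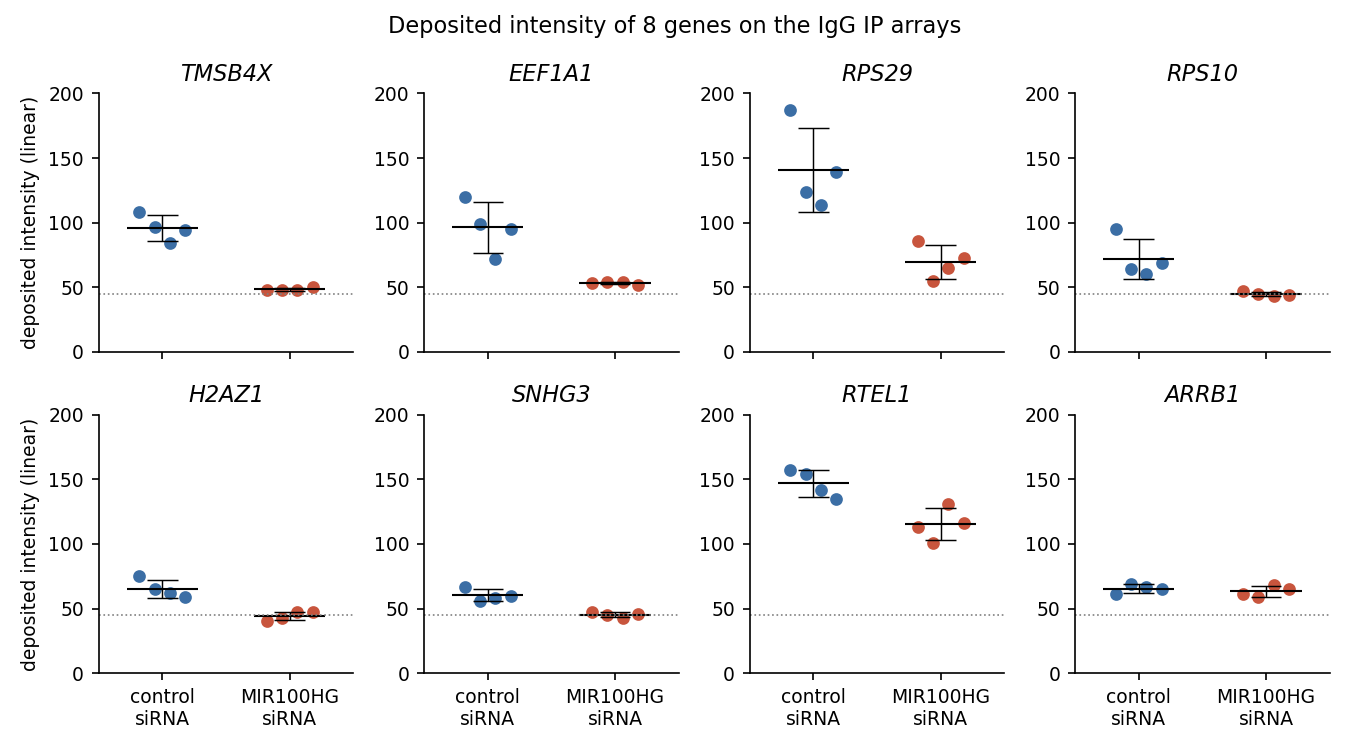
Points show the deposited intensity, on a linear scale, of 8 genes on each IgG IP array (control siRNA blue, MIR100HG siRNA red), with the mean of 4 arrays as a line and its SD as error bars. The dotted line is the mean over the arrays of the median intensity of all probes. TMSB4X lies at 84 to 108 units with control siRNA and at 48 to 50 with MIR100HG siRNA. For ARRB1 the ranges overlap, at 61 to 69 units with control and 59 to 68 with MIR100HG siRNA.

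EEF1A1, the elongation factor that brings aminoacyl-tRNA to the ribosome, read 120, 99, 72 and 95 units with control siRNA and 53, 54, 54 and 52 with MIR100HG siRNA. Every control array was above every MIR100HG siRNA array, and the latter arrays lay close together. The log2 difference was -0.98 ± 0.14 SE (limma adjusted p = 0.00282, and at most 0.0170 whichever array was left out). A further probe for EEF1A1 read 82, 60, 56 and 70 against 61, 44, 56 and 56, with overlapping groups and a difference of -0.20 on that scale (limma, adjusted p = 0.484), so the probes disagree. TPT1, the translationally controlled tumour protein, had a log2 difference of -0.48 and missed the threshold (limma adjusted p = 0.0534).

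Ribosomal protein genes formed the largest group. Of 75 with a probe 27 were tested, and 13 of these were lower and 0 higher, against 13.5% and 2.35% of all features. Their median log2 difference was -0.53, with a range from -0.98 to 0.22, and 26 of 27 were below 0. All 27 were detected on at least 3 control arrays and 6 on at least 3 MIR100HG siRNA arrays, so the filter kept them almost entirely through the control group. Of all 259 features that passed only through that group 66 were lower, so 13.5% is a low base for these genes. When only features detected in both groups were tested, 0 of these 6 passed. Many of these genes, like EEF1A1, ACTB and GAPDH, have processed pseudogenes of near-identical sequence, and whether the probes separate them was not tested.

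Among the small-subunit genes, RPS10 had the smallest p. It read 95, 64, 60 and 69 units on the control arrays and 47, 45, 43 and 44 with MIR100HG siRNA. The groups did not overlap, and the latter arrays were at background, so the difference was a bound of at least 1.36-fold lower (limma adjusted p = 0.00186). RPS25 read 64, 71, 58 and 70 against 47, 45, 46 and 44, at least 1.29-fold lower (limma adjusted p = 0.00873). RPS14, at 77, 58, 59 and 62 against 50, 43, 50 and 50, was at least 1.17-fold lower (limma adjusted p = 0.0135). These 3 and the large-subunit gene RPL31 passed in all 8 fits that left out 1 array, with adjusted p of at most 0.0453.

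RPL31 read 73, 71, 62 and 69 units with control siRNA and 53, 43, 50 and 49 with MIR100HG siRNA. The groups did not overlap before or after normalization, and the normalised log2 difference was -0.68 ± 0.11 SE (limma adjusted p = 0.00672). RPL11, at 104, 70, 67 and 73 against 55, 48, 54 and 58, fell by 0.58 in log2 units (limma adjusted p = 0.0126), and a further probe by 0.55. It lost the call only without control replicate 1, at 0.0508.

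RPS29 remained detectable on all 8 arrays, at 187, 124, 114 and 139 units with control siRNA and at 86, 55, 65 and 73 with MIR100HG siRNA. The groups did not overlap, and the log2 difference was -0.82 ± 0.20 SE (limma adjusted p = 0.0268). Its other probes gave -0.67 and -0.26, of which the latter did not pass (limma adjusted p = 0.126). The call was lost without control replicate 1 or 4 or MIR100HG siRNA replicate 3, at up to 0.0700. RPS20 fell by 0.67 (limma adjusted p = 0.0255), a call lost in 4 of 8 such fits, without control replicate 2 or 4 or MIR100HG siRNA replicate 2 or 3. RPL41 read 164, 129, 93 and 114 against 75, 50, 56 and 70. Its log2 difference of -0.98 had an SE of 0.32 and did not pass (limma adjusted p = 0.0656), and the normalised groups overlapped.

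**Figure D3:**
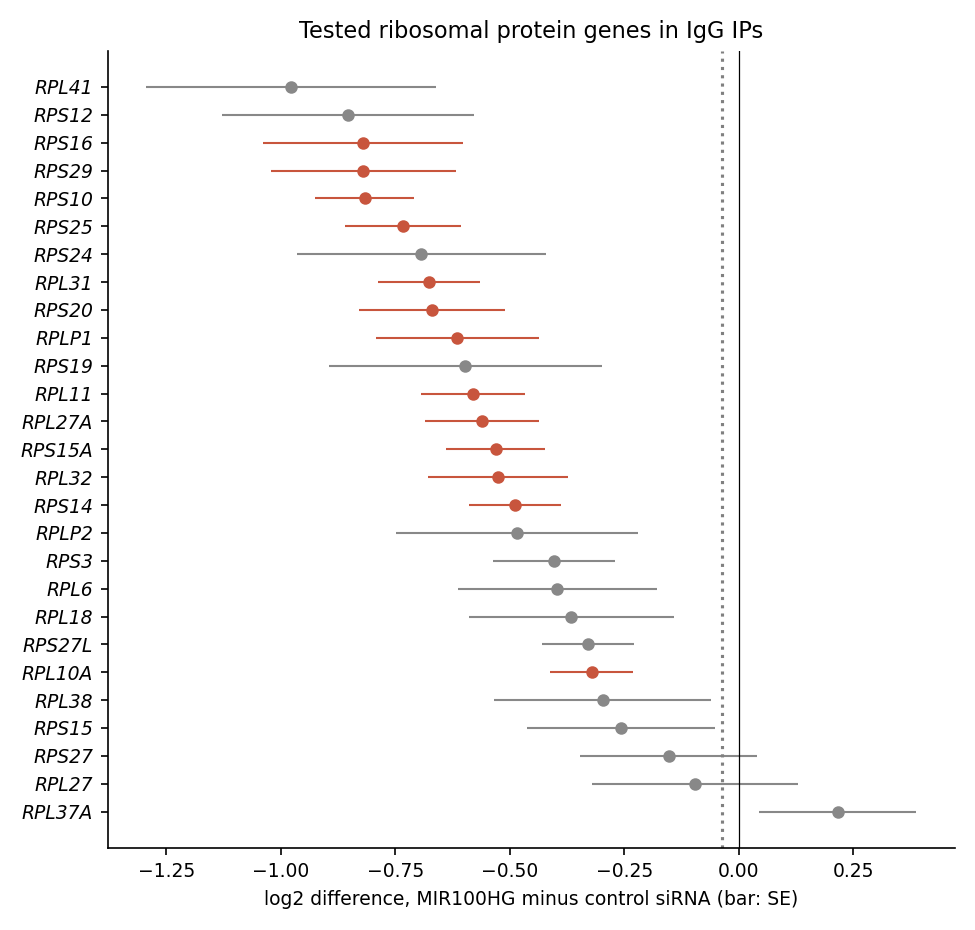
Each point is the log2 difference, MIR100HG minus control siRNA, of 1 of the 27 tested ribosomal protein genes on the normalised scale, with its SE as a bar. Red points passed an adjusted p under 0.05 and grey ones did not. The dotted line is the median of all tested features, -0.04. All but 1 of the 27 lie below 0, and 13 passed.

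The starts of these genes are shown because many mRNAs of the translation machinery begin with a terminal oligopyrimidine (TOP) run, a C followed by further pyrimidines at the first base, which is a feature that the arrays did not measure. Windows of 30 bases, 10 before and 20 from the annotated first base, were taken from RefSeq (GRCh38.p14) and read on the gene's own strand only. Capitals mark a run of C followed by at least 6 further C or T that begins within 5 bases of the annotated start. No capitals means only that no such run is in the window.
RPS10 (chr6:34426050-34426079, minus strand): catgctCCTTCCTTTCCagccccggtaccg
RPS14 (chr5:150449720-150449749, minus strand): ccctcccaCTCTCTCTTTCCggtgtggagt
RPS16 (chr19:39435930-39435959, minus strand): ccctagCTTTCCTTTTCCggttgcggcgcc
RPS25 (chr11:119018324-119018353, minus strand): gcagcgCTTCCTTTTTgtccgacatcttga
RPL11 (chr1:23691796-23691825, plus strand): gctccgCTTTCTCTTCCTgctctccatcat
RPL31 (chr2:101002279-101002308, plus strand): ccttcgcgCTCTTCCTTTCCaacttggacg
EEF1A1 (chr6:73521013-73521042, minus strand): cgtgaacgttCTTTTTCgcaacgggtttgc
RPS29 (chr14:49598691-49598720, minus strand): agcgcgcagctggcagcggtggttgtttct
TMSB4X (chrX:12975100-12975129, plus strand): cccgcccgacaactcggtggtggccactgc
H2AZ1 (chr4:99950256-99950285, minus strand): gggagacagcgcagtttgaatcgcggtgcg

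Of the 30 named genes that were lower, 25 had an annotated start, and 12 of the 25 (48.0%) held such a run at 1 start or more. The share was 18.1% of 199 tested named genes and 9.51% of 27305 genes of the whole table. Of ribosomal protein genes, 9 of 11 called lower held a run, beside 19 of 25 of those tested and 50 of 64 of those with a probe. Among the other genes called lower it was 3 of 14 (EEF1A1, MYL12B and XPNPEP3), and among tested genes that were neither lower nor ribosomal 14 of 160. RPL11 and MYL12B also have an annotated start without a run, and RPL11 is shown at the one with it.

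H2AZ1, a histone H2A variant placed at promoters, read 75, 65, 62 and 59 units with control and 40, 43, 47 and 47 with MIR100HG siRNA. It was at background on all 4 latter arrays, at least 1.22-fold lower (limma adjusted p = 0.00177), and passed whichever array was left out and with no filter. Of 86 histone genes with a probe it was the only one tested. SNHG3, a host transcript of small nucleolar RNAs, read 67, 56, 58 and 60 against 47, 45, 43 and 46. Its groups did not overlap either, at least 1.09-fold lower (limma adjusted p = 0.0111), in all 8 fits without 1 array. It was the only one of 4 tested noncoding RNAs to pass. Beside the 15.9% of all features called in either direction, that is no result about the list. The other three, MIR583, LINC02875 and LINC00636, had positive log2 differences of 0.27, 0.21 and 0.13 (limma adjusted p from 0.138 to 0.488).

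**Figure D4:**
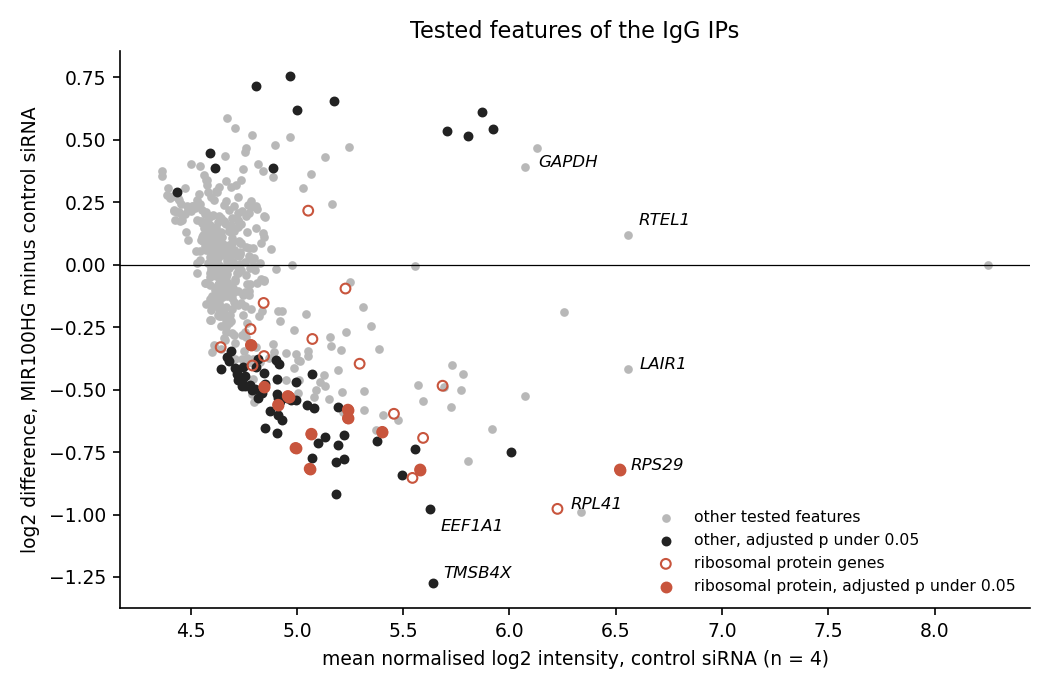
The horizontal axis is the mean normalised log2 intensity on the 4 control siRNA arrays and the vertical axis the log2 difference, MIR100HG minus control siRNA, for the 510 tested features. Filled red and black points passed an adjusted p under 0.05 (ribosomal protein genes in red, others in black). TMSB4X and EEF1A1 lie at -1.27 and -0.98, while GAPDH and RTEL1 lie above 0.

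Metabolic and trafficking genes had smaller differences. LDHA, the lactate dehydrogenase A subunit, read 60, 65, 56 and 63 units against 53, 48, 49 and 50 and fell by 0.38 (limma adjusted p = 0.0477). COX6C, a subunit of cytochrome c oxidase, and AP2S1, the small subunit of the clathrin adaptor, were at background with MIR100HG siRNA and at least 1.04-fold and 1.05-fold lower (limma adjusted p = 0.0252 and 0.0269). All 3 kept the call without control replicate 3 or MIR100HG siRNA replicate 1, and AP2S1 also without control replicate 4. They lost it in the other fits without 1 array, with adjusted p up to 0.127, 0.0684 and 0.0790. RRP7BP, a transcribed pseudogene, fell by 0.74 from 92.75 ± 26.9 to 55.5 ± 6.56 units, and the zinc finger gene ZNF674 by 0.54 (limma adjusted p = 0.0264 and 0.0265). RRP7BP lost the call without control replicate 1 or 2 or MIR100HG siRNA replicate 3 or 4, at up to 0.0838. ZNF674 kept it only without control replicate 2 or MIR100HG siRNA replicate 1, and reached 0.0710 otherwise.

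GAPDH, a glycolytic enzyme gene used as a reference, did not follow. It read 124, 127, 113 and 100 units with control siRNA and 107, 83, 106 and 109 with MIR100HG siRNA, with overlapping groups. Its log2 difference was 0.39 ± 0.16 SE (limma adjusted p = 0.123) and became -0.23 without scaling between arrays, and a further probe gave -0.33. The glycolysis list had 3 of 18 genes tested, LDHA lower and 0 higher, with a median of -0.30. In oxidative phosphorylation 1 of 3 was lower (median -0.17), in splicing and hnRNP proteins 0 of 3 (median -0.19), and in the housekeeping list of EEF1A1, ACTB and GAPDH 1 of 3 (median -0.38). None of these lists had a higher member. Beside the 13.5% of all features that were lower, 0 or 1 call among 3 members is no result about a list. Their medians shifted when 1 array was left out, by less than the spread of each list between arrays and with no change of sign. Glycolysis was -0.19 without control replicate 1. Oxidative phosphorylation was -0.10 without control replicate 1 or 4, -0.27 without control replicate 2 and -0.26 without MIR100HG siRNA replicate 1. Splicing was -0.33 and -0.03 without MIR100HG siRNA replicates 1 and 3.

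Cell cycle genes were scarcely measured. ORC6, a subunit of the origin recognition complex, read 81, 59, 60 and 55 units against 52, 43, 52 and 50, and its log2 difference was -0.38 (limma adjusted p = 0.0655). PCLAF, a PCNA-binding factor, read 105, 60, 70 and 63 against 66, 40, 42 and 55, a difference of -0.50 with an SE of 0.26 that did not pass. For PTTG1, securin, and CCNA2, cyclin A, the differences were -0.08 and 0.08. The last is also a known HuR target, as is ACTB, and 0 of these 2 tested HuR targets passed, of 31 with a probe. With 15.9% of all features called, 0 of 2 is no result about HuR targets. No gene was tested in the lists for extracellular matrix, the p53 pathway, interferon response, chaperones or AP-1.

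The 4 named genes that were higher on the normalised scale were ARRB1, G3BP2, RTN1 and EPS8L2. None of the 12 higher features passed without scaling between arrays, where 6 of them were below 0. G3BP2, RTN1 and EPS8L2 passed the detection filter only through the MIR100HG siRNA group. That favours a higher value there, and their calls support nothing by themselves. ARRB1, the signalling adaptor beta-arrestin, read 61, 69, 67 and 65 units with control and 61, 59, 68 and 65 with MIR100HG siRNA. These intensities overlap and their mean is lower with MIR100HG siRNA, while the normalised log2 difference was 0.62 ± 0.17 SE (limma adjusted p = 0.0398). G3BP2, a stress granule protein, read 57, 54, 56 and 58 against 60, 55, 56 and 61, with a normalised difference of 0.45 (limma adjusted p = 0.0320). EPS8L2, a relative of the actin regulator EPS8, had 55, 55, 50 and 52 against 56, 52, 55 and 56 and a difference of 0.29 (limma adjusted p = 0.0379). RTN1, a reticulon of the endoplasmic reticulum, had 55, 56, 58 and 57 against 56, 55, 58 and 60 and a difference of 0.39 (limma adjusted p = 0.0398). All 4 lost their call without control replicate 1, 2 or 4 or MIR100HG siRNA replicate 2 or 4, at up to 0.144, and kept it without MIR100HG siRNA replicate 1. Of all 12 higher features, 8 had a lower mean intensity with MIR100HG siRNA before normalization.

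UGGT2, DSP, KIR2DS5 and TRAT1, which followed these by p, had normalised log2 differences from 0.27 to 0.34 and did not pass (limma adjusted p from 0.0634 to 0.0862). Among the named features with high mean values on the control arrays, CLUAP1, a cilium protein, read 165, 112, 119 and 113 units against 95, 60, 70 and 78, and its normalised difference was -0.19. RTEL1, a helicase of telomeres, read 157, 154, 142 and 135 against 113, 101, 131 and 116. For both genes all MIR100HG siRNA arrays lay below all control arrays before normalization, and the groups overlapped after it. The difference of RTEL1 was 0.12 with quantile normalization and -0.43 without scaling, where it passed as lower (limma adjusted p = 0.0263).

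The siRNA comparison in the IgG IPs was set beside that in the HuR IPs, which share no array with it. Across 510 features the difference between the comparisons passed for 2 (0.392%) in a limma fit over all 16 arrays (49 at an unadjusted p under 0.05), both probes without a gene name here. These features were kept by detection in IgG IPs alone, and both probes were detected on 4 control and 0 MIR100HG siRNA arrays there, so the filter favours a more negative difference in IgG IPs and the calls are given as values only. ILMN_1695261 differed by -1.97 in IgG and -0.32 in HuR IPs (limma adjusted p of the difference = 0.0117), and ILMN_3201843 by -1.71 and -0.24 (0.0370). The first passed in all 16 fits that left out 1 array, and the second lost the call in 11 of them, at up to 0.134. Neither passed without scaling, with median centring or with the replicate number as a block, where the adjusted p of the first was 0.320, 0.443 and 0.0606. HuR IP replicate 2 with MIR100HG siRNA stands apart from its group, with 1237 units for TMSB4X where the other 3 read 80, 98 and 55. Without it 3 features differed between the IP types, ILMN_1695261, RTEL1 and ILMN_1860084.

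Of the 69 features lower in the IgG IPs, 67 were below 0 in the HuR IPs (211 of all 510 were) and 2 passed as lower there, against 3 of all 510. Without the array that stands apart, 68 were below 0 (203 of all 510) and 35 passed as lower in HuR IPs, against 53 of 510 (10.4%) of all features. Since 66 of the 69 passed the detection filter only through the control IgG arrays, all 510 features are not a matched base for them. TMSB4X read 252, 399, 460 and 188 units in the HuR IPs with control siRNA. In that 15-array fit it differed by -1.23 in HuR IPs (limma adjusted p = 0.0192) and by -2.10 in IgG IPs, and the difference between these did not pass (limma adjusted p = 0.398). RPS29 differed by -1.32 and -1.26, EEF1A1 by -0.87 and -1.70 and RPS10 by -0.70 and -1.25 in HuR and IgG IPs (limma adjusted p of the difference = 0.964, 0.279 and 0.335). Over the 510 features the log2 differences correlated at r = 0.78 (Spearman rho 0.75), a description across features that are not independent and were kept by their level in IgG IPs.

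**Figure D5:**
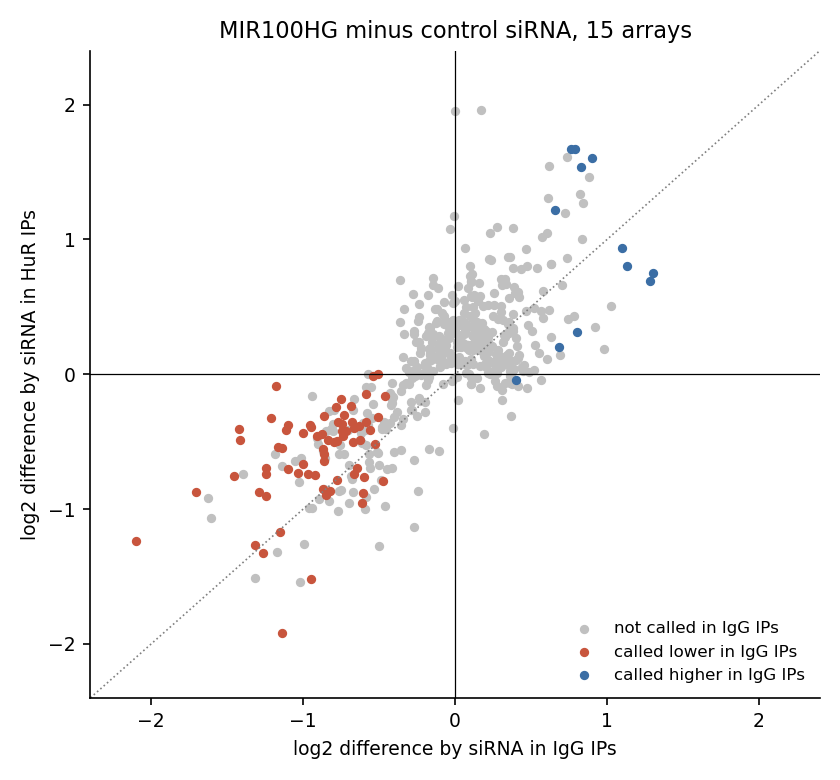
Each point is 1 of the 510 features, with its log2 difference, MIR100HG minus control siRNA, in IgG IPs and in HuR IPs on 15 arrays, leaving out the MIR100HG siRNA array of HuR IP replicate 2. The dotted line marks equal differences. Of the 69 features lower in the 8-array comparison, 68 lie below 0 in HuR IPs.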

How the data were processed

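Per the labels' protocols, RNA recovered with IgG or HuR antibody was amplified with an oligo-dT primer before hybridisation to bead arrays. The deposited intensity values are linear bead summaries without normalization across arrays; the submitters' processing notes name GenomeStudio 2011.1. A detection p-value accompanies every intensity, per the file headers. The deposited score table, apparently a z-score per array, served as an alternative. Its column for MIR100HG siRNA replicate 1 in IgG IPs correlated with its own array at 0.0066 (the other 15 at 0.997 or more) and was left out there.

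The 8 IgG arrays were processed with neqc of limma 3.58.1 under R 4.3.3, which corrected the background from negative controls that detection p-values imply, added an offset of 16, quantile normalized and took log2. Gene symbols came from the platform annotation: 1 gene for 30113 probes, several for 8 and none here for 17110. By gene identifier, 30074 symbols were matched and 39 stayed as annotated. Genes with several probes took the one with the highest mean. Features were tested with limma (lmFit, eBayes) by group, and array measures by two-sided exact permutation. A fall in a group with no array at a detection p under 0.05 is a bound. The comparison with HuR IPs normalized all 16 arrays together. Members, lists (26), tests and named genes were chosen with earlier results of these data known.

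Genes were named if they passed without overlap of the groups: the 12 rises and 12 falls at most that had the greatest difference among those detected on at least 2 arrays of each group, and up to 8 bounds per direction. Up to 4 members of each list by smallest p, fillers of up to 8 per direction by smallest p, the 5 named features with the highest control means, MIR100HG and ELAVL1 were added. XPNPEP3, RPS16 and the unnamed probes were named after their values were seen.

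The fit was tested on simulated data, independent normal values with added rises. These held neither the choice by the detection filter nor a shift of whole arrays, so they support nothing about the calls here. The number of arrays limits the precision. Replicate numbers were not used to pair the samples (same-number correlations 0.35, 0.07, 0.05 and 0.08), and so few arrays cannot show whether the samples were paired. Arrays of a group shared 8.25% to 11.0% identical intensities, so none was a duplicate. Alternatives covered background correction, scaling, offset, filter, probes per gene, weights, trend, block, deposited scores and each array left out. Figures were drawn with matplotlib 3.10.9.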

Additional observations from a re-analysis of the deposited data

Results flagged for a closer look

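The background-corrected signal of control replicate 1, summed over the tested features, was 11398.2 units, far from the other control arrays at 7324.56 to 7760.16. Single arrays also stood apart in 3 genes on the normalised log2 scale. H2AZ1 was 4.7606 on control replicate 4 (others 4.9524 to 4.964), EPS8L2 was 4.7703 on MIR100HG siRNA replicate 1 and UGGT2 was 4.552 on MIR100HG siRNA replicate 2 (others 4.7075 to 4.7144 in both). These were 4 of 110 groups of 4 arrays examined, and chance alone gives about 1 in 20.

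The siRNA difference was more negative in IgG than in HuR IPs by -1.6488 for ILMN_1695261 and by -1.4669 for ILMN_3201843 on the log2 scale in the limma fit over 16 arrays. Both probes were kept through their detection on 4 control and 0 MIR100HG siRNA arrays of the IgG IPs, which favours this direction, and neither passed without scaling, with median centring or with the replicate number as a block.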

How the results depend on the processing

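The count of 81 calls became 0 among features detected in both groups, 9 with no filter and 124 with the deposited scores (2 higher, 122 lower), and 33 to 137 leaving out 1 array. It stayed within 1.5 times under every other setting, but its split did not: 0 higher and 114 lower without scaling, 0 and 110 with median centring, where the median of all features was -0.14 and -0.13. Of the 69 lower features 66 were lower in each of these and with the deposited scores, and 0 of the 12 higher ones were higher. Of the settings chosen after seeing the data, 5 higher and 89 lower came from one (centred on probes detected in both groups), and 1 and 118 (no scaling, without MIR100HG siRNA replicate 1) and 0 and 96 (no scaling, without control replicate 1). The replicate number as a block gave 14 higher and 75 lower, 60 of the 69 among them; the samples share only a number, and 2 of 4 correlated best with their own.

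Directions turned for 6 genes that had not passed. Of these only RTEL1 passed as lower without scaling and with median centring (limma adjusted p = 0.0263 and 0.0283). Without scaling and with median centring GAPDH was -0.23 and -0.22, HNRNPK -0.053 and -0.045, LINC00636 -0.018 and -0.00988, RTEL1 -0.43 and -0.42, CCNA2 -0.060 and -0.052 and MRPS18B -0.032 and -0.024. Deposited scores, in score units, gave -0.70 for GAPDH, -1.59 for RTEL1, -0.14 for CCNA2 and -0.0858 for MRPS18B. Leaving out 1 array, RTEL1 ranged from -0.019 to 0.19, CCNA2 from -0.042 to 0.15 (-0.000280 without MIR100HG siRNA replicate 1) and MRPS18B from -0.0087 to 0.089.

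List medians moved as follows, in the order actin cytoskeleton, ribosomal proteins, housekeeping: -0.58, -0.78 and -0.60 without scaling, -0.57, -0.77 and -0.59 with median centring, -1.02, -1.22 and -1.02 with all 16 arrays, -0.20, -0.28 and -0.18 without background correction, -0.18, -0.24 and -0.18 with an offset of 50, and -1.91, -3.30 and -2.02 in score units. With all 16 arrays glycolysis was -0.57, oxidative phosphorylation -0.39, splicing -0.43 and noncoding RNAs 0.44, and in score units -1.66, -1.17, -1.45 and 0.42. Glycolysis was -0.12 with an offset of 50. Among features detected in both groups glycolysis, then GAPDH alone, was 0.39 and housekeeping 0.0039. Leaving out 1 array, the medians ran from -0.51 to -0.31 (actin), -0.61 to -0.42 (ribosomal proteins), -0.38 to -0.19 (glycolysis), -0.50 to -0.28 (housekeeping), -0.27 to -0.10 (oxidative phosphorylation), -0.33 to -0.03 (splicing) and 0.09 to 0.24 (noncoding RNAs).

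Without 1 array the group difference ran from -271 to -117 detected probes, from -2.92 to -1.92 in median intensity and from -3755 to -2397 in summed signal. Without MIR100HG siRNA replicate 4 the detected probes and the summed signal passed after adjustment. At a detection p under 0.05 the control arrays had 3640, 2734, 2565 and 2819 detected probes. The MIR100HG siRNA arrays had 2597, 2877, 3232 and 3030, so the groups overlapped. The summed signal covers only the tested features, which the filter kept more often through the control group alone. The count of features that differ between IgG and HuR IPs, 2, was 0 without scaling, with median centring and with the replicate block, and 1 to 7 leaving out 1 array. The cause of these changes was not tested. Signals close to background limit all values: the median intensity of an array was 42 to 47 units, and few probes were detected.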
